A study of Arabidopsis thaliana with 18 samples.

Results

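Arabidopsis thaliana plants of the accession Mt-0 that received the carrier alone, 0.02% silwet and no SA, were measured in 2 groups of 3 arrays each, which are compared here. The 6 arrays were chosen from the 18 of the series by their titles. Serial numbers 76 to 78 form set 2, serial numbers 79 to 81 form set 3, and the replicate numbers 1, 2 and 3 in the titles tie each array of set 2 to 1 array of set 3. The other arrays are a set 1 of 3 silwet arrays and 9 arrays, also in 3 sets, of plants given SA at 0.30 mM in the same carrier, SA being read as salicylic acid. All were ATH1 arrays of total RNA labelled with biotin, and every plant of the series received silwet, so no array shows plants without it. What separates set 2 from set 3 is not stated in the labels, and neither are tissue, plant age and harvest time. The arrays of a set are not said to come from separately grown plants, so a p-value here measures the spread between arrays, some of which may be technical.

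Silwet is an organosilicone surfactant that lowers surface tension, so that a spray spreads over a waxy leaf and enters it more easily. Because both sets had the same carrier, the comparison asks how far the carrier arrays differ where the labels give no difference in treatment. Whether the sets differed in something that the labels leave out is not known. Several groups of leaf transcripts are known to respond to small changes in the environment: those of defence, wounding and touch, which can be induced within minutes to hours by handling or elicitors; those of anthocyanin synthesis, which respond to light, cold and sugar; and those of photosynthesis in nucleus and plastid.

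The values are MAS5 signals that the authors had scaled to a common trimmed mean, and the median signal of the 6 arrays ran from 29.7 to 36.8. Differences are set 3 minus set 2 on the scale log2(signal + 16), averaged over the 3 replicate pairs, so that a difference of 1 is a change of about 2-fold in well expressed genes and understates the change of weak ones. Transcripts of leaf genes were high on all 6 arrays. RCA, the activase of the carbon-fixing enzyme Rubisco, gave 2249 to 3773, LHCB4.1, an antenna protein of photosystem II, 3374 to 4916 and SBPASE, a Calvin cycle enzyme, 1641 to 2319. The root-enriched glucosidase PYK10 gave 105 to 149, the root hair expansins EXPA7 and EXPA18 gave 1.34 to 17.5, 2 flower and pollen markers gave 1.03 to 5.83, and no seed marker had a named probe set here. The 3′ over 5′ signal ratio, averaged on the log2 scale over the control probe sets for actin, GAPDH and ubiquitin, was 0.492 ± 0.248 (SD, n = 3) in set 2 and 0.307 ± 0.203 in set 3, an exact permutation p of 0.500 where 3 against 3 cannot go below 0.1.

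Both arrays of replicate 1 stood apart from the other 4. On the first principal component, which held 40.6% of the variance, set 3 replicate 1 lay at 42.3 and the other arrays between -14.7 and -2.52, and on the second, with 28.9%, set 2 replicate 1 lay at 35 and the others below 0. The root mean square log2 difference within a replicate pair was 0.524 for replicate 1, 0.242 for replicate 2 and 0.307 for replicate 3, and between arrays of 1 set it ran from 0.287 to 0.512. The closest arrays of all were thus from different sets, set 2 replicate 2 and set 3 replicate 2. The mean 3′ over 5′ ratio was also highest on set 2 replicate 1, at 0.763, and lowest on set 3 replicate 1, at 0.0971, and its part in the results was not tested. Of the sum of squares over the 6 arrays, set took 19.7% on 1 degree of freedom, replicate number 47.4% on 2 and the rest 32.8% on 2. Per degree of freedom these were 19.7%, 23.7% and 16.4%. Where leaving out replicate 1 moved the difference of a gene named below by over 1.5 times, the mean of the other 2 pairs, or each pair, is given too.

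**Figure D1:**
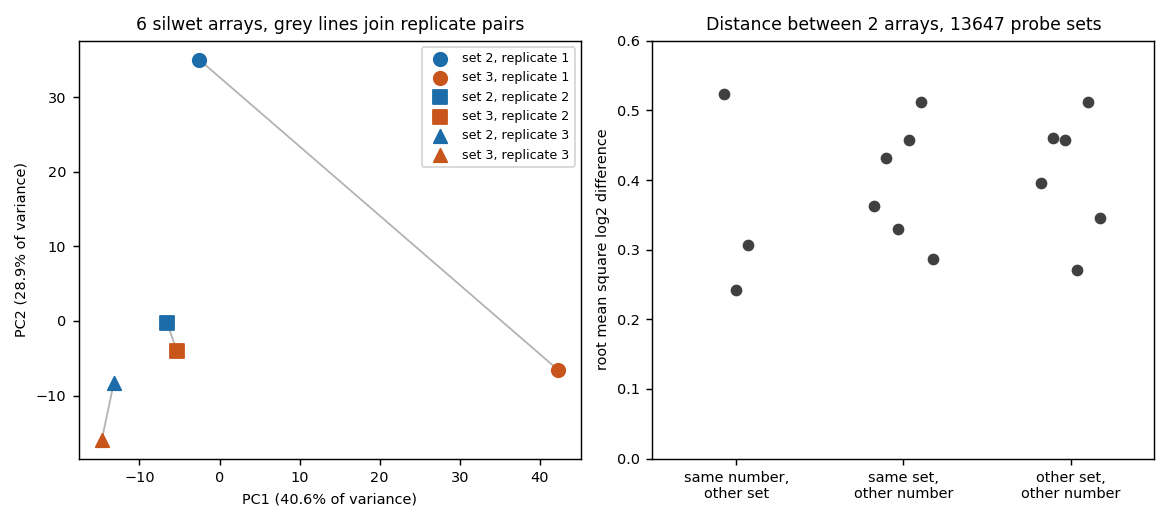
The 6 silwet arrays by their first principal components (left; grey lines join the arrays of a replicate number) and the root mean square log2 difference between each pair of arrays over 13647 probe sets (right; points are array pairs). The arrays of replicate 1 lie 0.524 apart, those of replicates 2 and 3 lie 0.242 and 0.307 apart, and arrays of the same set lie 0.287 to 0.512 apart.

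No gene passed the test against the spread between arrays. Of 13647 tested probe sets, 0 were called higher and 0 lower in set 3 at an adjusted p under 0.05 by limma, and the smallest adjusted p was 0.981. At an unadjusted p under 0.05, limma gave 200 higher (1.47%) and 234 lower (1.71%), 3.18% together. The median difference was 0.0081, with quartiles of -0.129 and 0.147, and single differences ran from -1.39 to 1.64. The 95% interval lay inside ±1 for 12670 probe sets (92.8%), while for 977 (7.16%) it reached beyond. The genes below are therefore named by rank of p and not because they passed, and their values describe these 6 arrays.

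The large differences rested on few arrays. A difference over 1 was seen in 16 probe sets and one under -1 in 16. All 16 higher ones had their highest signal on set 3 replicate 1, and without replicate 1 the mean of the other 2 pairs was over 1 in 0 of them. Of the 16 lower ones, 11 had their highest signal on set 2 replicate 3, 11 had their lowest on set 3 replicate 1, and 3 stayed under -1 in the mean of pairs 2 and 3. Within the pair of replicate 1 alone, 780 probe sets differed by more than 1, against 37 in the pair of replicate 2 and 122 in that of replicate 3. Leaving out set 3 replicate 1 took the 32 probe sets beyond ±1 to 10.

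The 12 genes of smallest p among those lower in set 3, with 1 gene to the probe set and the same sign in all 3 pairs, held WRKY53, a transcription factor of leaf senescence and defence, the cytochrome P450 CYP71B23, and AT3G13610, listed in RefSeq as F6'H1, the hydroxylase that opens the synthesis of the coumarin scopoletin. The other 9 carry only a locus code in the tables used here. The differences of the 12 ran from -1.36 to -0.70, with unadjusted p from 0.000748 to 0.00523 and an adjusted p of 0.981. In RNA from whole samples, fewer cells of a type and less RNA per cell cannot be told apart, here and in all that follows.

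WRKY53 gave signals of 152, 49.2 and 204 on replicates 1, 2 and 3 of set 2, and of 32.0, 46.1 and 59.4 on set 3. Replicates 1 and 3 of set 2 were high and replicate 2 lay within the range of set 3, so the groups overlapped. The difference was -1.14 ± 0.32 (SE, 95% interval -1.83 to -0.45), with pair differences of -1.81, -0.07 and -1.55. AT3G13610 was also highest on set 2 replicate 3, with 53.6, 36.6 and 136 in set 2 and 5.09, 24 and 50 in set 3. Its difference of -1.11 ± 0.31 joins 3 pairs of -1.72, -0.40 and -1.21, and set 3 replicate 1 was far below the rest.

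AT5G52760 had the smallest p of the 12. It gave 458, 128 and 348 in set 2 and 91.9, 83.6 and 154 in set 3, means of 311 ± 168 and 110 ± 38.3 (SD, n = 3). Only replicate 2 of set 2 kept the groups from separating. Its difference was -1.25 ± 0.30, and -0.81 in the mean of pairs 2 and 3. AT1G19020 had the largest difference, -1.36 ± 0.35, from 338, 103 and 349 in set 2 to 44.7, 79.3 and 142 in set 3, and its pair 2 again differed least, by -0.32; without replicate 1 it was -0.76.

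Groups that did not overlap were found in 2 of the 12. Over all tested probe sets 4.68% were so separated in that direction. The 12 were picked by p and pair signs on these same arrays, so their count is not read against that share. CYP71B23 gave 389, 214 and 313 in set 2 and 206, 150 and 179 in set 3, a difference of -0.70 ± 0.21. AT2G21640 gave 166, 88.4 and 84.5 in set 2 and 40.8, 63.4 and 27.7 in set 3, a difference of -1.09 ± 0.33. Both had every array of set 3 below every array of set 2. AT1G72900, AT1G57630, AT3G02840, AT5G39670, AT4G27280 and AT5G38900 had differences between -1.28 and -0.73 and overlapping groups; without replicate 1, AT1G72900 had -0.61 in place of -1 and AT1G57630 had -0.85 in place of -1.28.

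**Figure D2:**
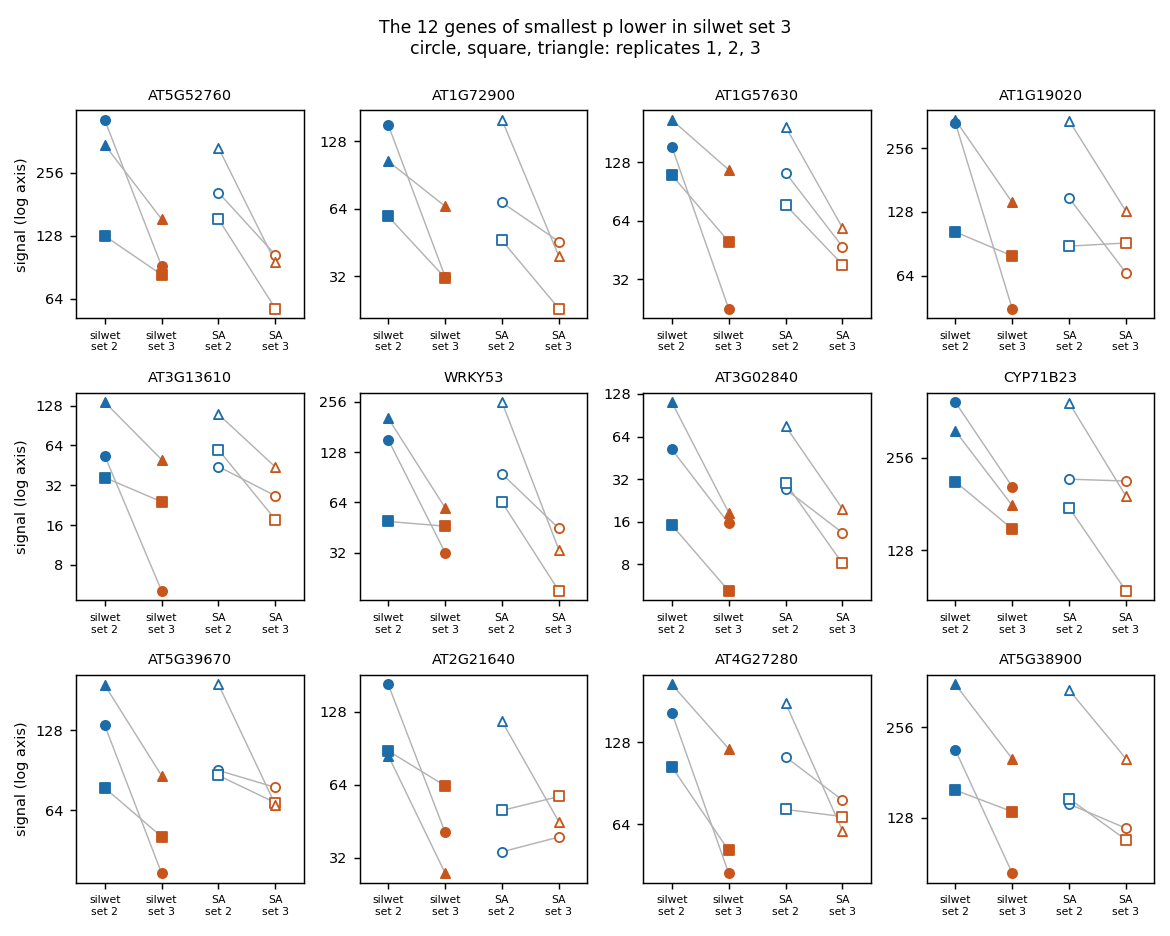
Signal (log axis) of the 12 genes of smallest p lower in silwet set 3 on the silwet arrays (filled) and SA arrays (open) of sets 2 and 3; symbols mark the replicate number and grey lines join pairs. In 10 of the 12 panels replicate 2 of silwet set 2, the filled blue square, lies within the range of silwet set 3, as for WRKY53 with 49.2.

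The same set comparison can be made in the 6 SA arrays of sets 2 and 3, none of which entered the silwet difference. Over all probe sets limma called 1 higher there (0.00733%), unnamed here, and 0 lower, with 413 higher (3.03%) and 528 lower (3.87%) at an unadjusted p under 0.05, 6.90% together. All 12 genes were also lower in SA set 3, with differences from -1.51 to -0.28 and a median of -0.84, against a median of -0.0269 over all tested probe sets. Of all tested probe sets 54.5% were below 0 in SA. Of the 234 that were lower in silwet at an unadjusted limma p under 0.05, 157 were. None of the 12 passed in SA (smallest limma adjusted p 0.601), and 7 had groups that did not overlap (4.08% of all). The fit gives each gene 1 spread for both treatments. Genes ranked by a small p in silwet thus also tend to have a small SE in SA. Neither a count of their unadjusted SA p-values nor the count of separate SA groups is therefore read against all probe sets. WRKY53 gave 94.8, 64.1 and 255 in SA set 2 and 44.7, 18.9 and 33.3 in SA set 3, a difference of -1.51 ± 0.32, and each set 3 array was below each set 2 array. AT5G52760 had the same difference of -1.25 ± 0.30 in both treatments. AT2G21640 differed least, by -0.28 ± 0.33, with overlapping SA groups.

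The test of the difference between the treatments called 0 of 13647 probe sets (limma), with 370 higher in silwet (2.71%) and 205 lower (1.5%) at an unadjusted p under 0.05, 575 in all (4.21%). The silwet difference that ranked the named genes is part of this test, so it is not independent of their choice; none of the 12 was among the 575. The SA arrays are not a fully separate sample, however. Deviations from the group mean of same-numbered silwet and SA arrays of a set correlated across the tested probe sets, at 0.129 to 0.378 in set 2 and at 0.271 to 0.770 in set 3, with the highest value between the replicate 1 arrays of set 3. A second number in the titles also places each SA array directly after the silwet array of its set and replicate. Over all tested probe sets, the silwet and SA differences had a Pearson correlation of -0.0288 across genes.

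For scale, the SA arrays of set 1 carried far more of some of these transcripts. AT3G13610 gave 593, 594 and 573 there, against 5.75, 15.5 and 66.3 on the silwet arrays of set 1. WRKY53 gave 625, 250 and 412 there and 151, 76.9 and 183 on silwet set 1. The silwet set 2 values of WRKY53 thus spanned those of silwet set 1, and all 3 of silwet set 3 lay below them.

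**Figure D3:**
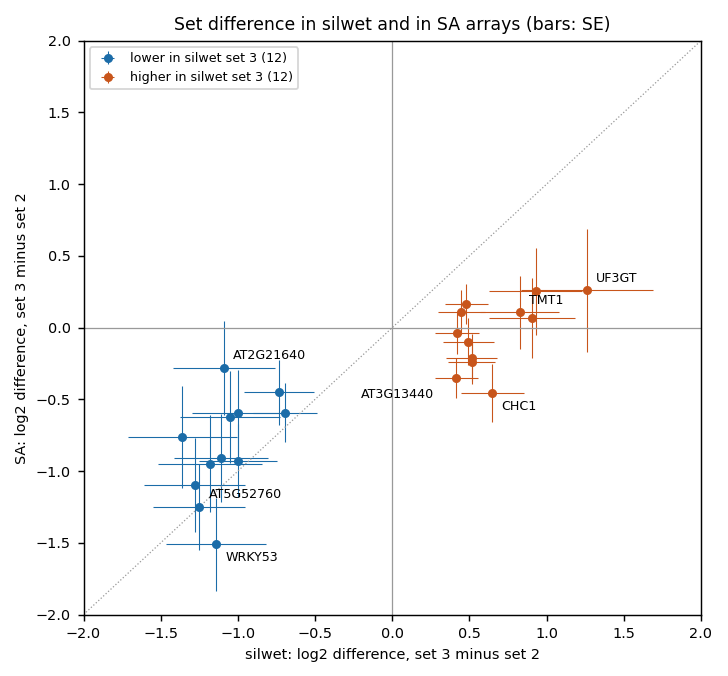
Difference between sets 3 and 2 on the log2(signal + 16) scale in silwet arrays (x) and SA arrays (y) for the 12 genes of smallest p in each direction in silwet; bars are SE and the dotted line marks equal differences. The 12 lower genes all lie below 0 in SA, from -1.51 to -0.28, while the 12 higher genes lie on both sides of 0, from -0.46 to 0.26.

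The tested members of the lists of salicylic acid defence and of touch and wounding were also below 0. WRKY53, 1 of the 12 above, is in the touch and wound list, so that list is not separate from them. The list of salicylic acid and systemic defence had 4 tested members of 32, all below 0, with a median of -0.560, as 6604 of all 13647 probe sets were below 0. At an unadjusted p under 0.05 there was 1, where 1.71% of all probe sets were lower. That 1 was UGT76B1, a glycosyltransferase of defence signals, with 38.9, 11.5 and 82.6 in set 2 and 5.55, 10 and 16.9 in set 3. Its replicate 2 hardly differed, by -0.08, and its difference was -1 ± 0.39. GRX480, a glutaredoxin induced by salicylic acid, had a difference of -0.53 ± 0.34 (-0.31 without replicate 1), BSMT1, which methylates salicylic acid, -0.59 ± 0.47 (-0.99 without it), and SAG101, a partner of the immune regulator EDS1, -0.21 ± 0.19.

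Of the touch and wound list, 3 of 19 were tested and all 3 were below 0, as were 6604 of all 13647 probe sets. They were WRKY53, the calmodulin-like protein CML38 and the zinc finger factor STZ. CML38 gave 14.5, 15.2 and 35.6 in set 2 and 5.06, 13.6 and 6.48 in set 3. Its groups did not overlap, as in 4.68% of all tested probe sets in that direction. STZ was high on 1 array, set 2 replicate 3, with 153, 126 and 456 in set 2 and 98.7, 159 and 155 in set 3. All 5 tested calmodulin-like genes, CML38 among them, were below 0, again beside the 6604 of all 13647. Their median was -0.377, which was -0.113 without replicate 1. Set 2 replicate 3 was the array with the highest level of the defence list, 1.06 above the mean of the 6 arrays in the median of its members.

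Not every factor of this kind was lower. Of 5 tested WRKY factors, 2 were above 0 and 3 below: WRKY20 had a difference of 0.34 ± 0.22 (0.22 without replicate 1), WRKY22 of -0.10 ± 0.16 (-0.15 without it) and WRKY6, another senescence factor, of -0.19 ± 0.21. The chitinase CHI was at 278, 504 and 1002 in set 2 and at 533, 687 and 762 in set 3, with a difference of 0.32 ± 0.51, and 0.02 without replicate 1. The jasmonate list had 3 tested members of 26, all above 0, as were 7043 of all 13647 probe sets. Its median was 0.618, with -1.72 in pair 1, 1.69 in pair 2 and 0.572 in pair 3. Of its members THI2.1, a thionin induced by jasmonate, had a difference of 1.03 ± 0.33, from 17.9, 19.2 and 15.3 to 140, 53.3 and 13.4. Its replicate 3 was slightly lower in set 3, so that its 2 other pairs made the difference, which was 0.44 without replicate 1. BZIP60, a transcription factor of the unfolded protein response, gave 504, 352 and 564 in set 2 and 233, 285 and 354 in set 3, a difference of -0.67 ± 0.21 with groups that met at replicate 2 of set 2. The other 5 tested members of its endoplasmic reticulum list lay between -0.0371 and 0.335, and CRT1b, a calreticulin, was higher on every array of set 3, by 0.34 ± 0.24.

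Anthocyanin synthesis had the highest median difference of the lists with at least 3 tested members. The list had 3 tested members of 22, with a median difference of 1.34. All 3 were higher at an unadjusted limma p under 0.05, where 1.47% of all tested probe sets were. All 3 were also higher in each of the 3 pairs, as were 1908 of the 13647 tested probe sets. DFR, the reductase that makes the colourless precursors of anthocyanins, gave 75.4, 61.8 and 22.8 in set 2 and 470, 144 and 41.6 in set 3. UF3GT, which adds a sugar to anthocyanins, gave 19.5, 24.3 and 8.60 in set 2 and 172, 56.6 and 19.3 in set 3. AT4G14090, the other member, gave 39.2, 50.7 and 13.2 in set 2 and 473, 120 and 33.1 in set 3.

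In all 3 genes replicate 1 of set 3 was by far the highest array and replicate 3 the lowest of its set, and replicate 3 of set 3 lay below replicates 1 and 2 of set 2, so the groups overlapped. The differences were 1.34 ± 0.47 for DFR (95% interval 0.34 to 2.34), 1.26 ± 0.43 for UF3GT (0.35 to 2.17) and 1.64 ± 0.66 for AT4G14090 (0.24 to 3.04). In the mean of pairs 2 and 3 they were 0.80, 0.69 and 0.89, and without set 3 replicate 1 alone 0.79, 0.75 and 0.99, with 0 of 3 at an unadjusted p under 0.05 and 3 of 3 still above 0. The summed signal of the 3 genes was 1114 on set 3 replicate 1 and 44.61 to 320.1 on the other 5 arrays.

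CHIL, a chalcone isomerase-like protein that aids the first steps of flavonoid synthesis, followed in a narrower range, from 31.6, 30.7 and 14.4 to 57.3, 50.8 and 21.5, a difference of 0.48 ± 0.18. In the SA arrays the set differences of these genes were small beside their SE: 0.31 ± 0.47 for DFR, 0.26 ± 0.43 for UF3GT, -0.01 ± 0.66 for AT4G14090 and 0.12 ± 0.18 for CHIL. The SA arrays of replicate 1 were the highest of their set for DFR, UF3GT and AT4G14090 in both sets. The difference between the treatments had unadjusted limma p from 0.0952 to 0.166 for these 4 genes and was not called.

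**Figure D4:**
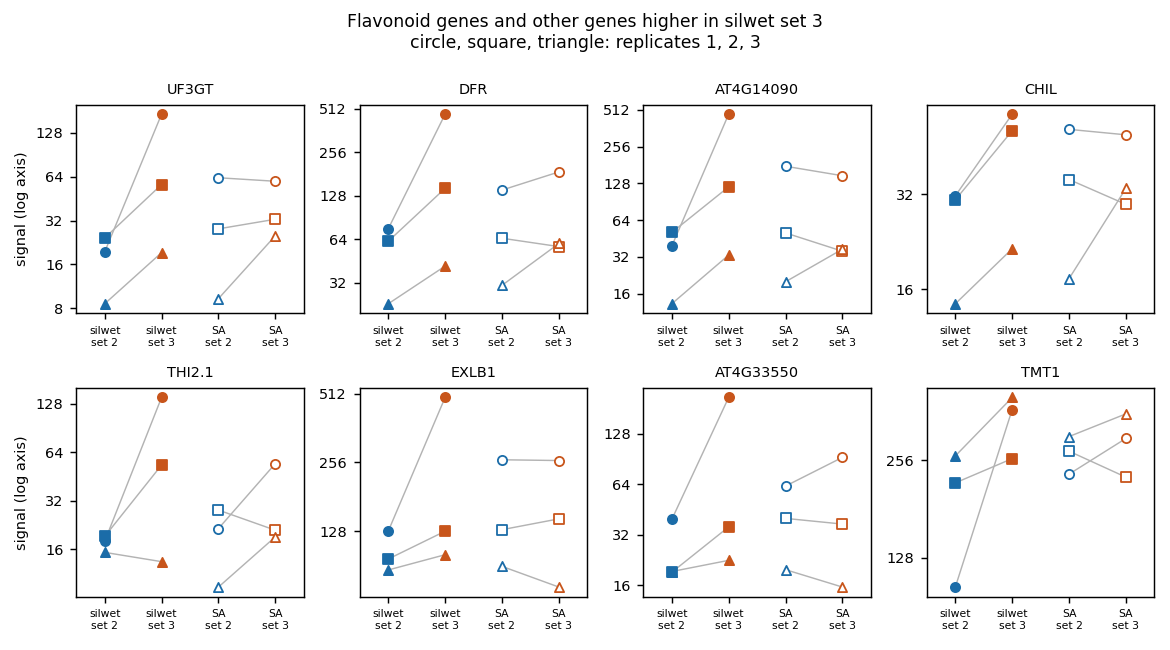
Signal (log axis) of 4 flavonoid genes (top row) and 4 other genes higher in silwet set 3 (bottom row) on the silwet arrays (filled) and SA arrays (open) of sets 2 and 3; grey lines join pairs. For DFR, UF3GT and AT4G14090 the circle of silwet set 3, replicate 1, is the highest point, at 470, 172 and 473.

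Among the 12 genes of smallest p on the higher side, differences ran from 0.42 to 1.26 and unadjusted limma p from 0.00356 to 0.0107. Groups did not overlap in 8 of the 12, and in 5% of all tested probe sets in that direction. These 12 too were picked by p and pair signs on the same arrays, which favours separate groups. The count is therefore a description only. Beside UF3GT, those with a name were TMT1, a sugar transporter of the vacuolar membrane, and CHC1, listed in RefSeq also as BAF60, a subunit of the SWI/SNF chromatin remodelling complex. CHC1 gave 59.4, 62.5 and 60.7 in set 2 and 122, 111 and 83.3 in set 3, so set 2 was tight and every set 3 array was above it. Its difference was 0.65 ± 0.20. TMT1 gave 104, 218 and 264 in set 2 and 367, 259 and 400 in set 3, with overlapping groups, a low replicate 1 in set 2 and a difference of 0.83 ± 0.26, which was 0.40 in the mean of pairs 2 and 3.

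AT1G28710 had narrow groups well apart, with 26.8, 33.6 and 30.3 in set 2 and 45.9, 43.2 and 48.1 in set 3, a difference of 0.42 ± 0.14. AT4G21650 gave 16.6, 12.1 and 7.99 in set 2 and 68.1, 27.7 and 25.3 in set 3, a difference of 0.93 ± 0.30 that was 0.71 in the mean of pairs 2 and 3. AT4G33550 depended on 1 array, with 39.4, 19.1 and 19.3 against 210, 35.6 and 22.5, and its difference of 0.90 ± 0.28 was 0.34 in the mean of pairs 2 and 3. AT2G31010, AT1G15490, AT2G20790, AT3G13440 and AT4G29270 also had separate groups, with differences from 0.42 to 0.52, of which the 0.48 of AT2G31010 was 0.31 without replicate 1, while the groups of AT3G16310 overlapped.

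Unlike the lower genes, the 12 higher genes had no common direction in the SA arrays. There 6 were above 0 and 6 below, with a range of -0.46 to 0.26 and a median of 0.02. Of all tested probe sets 45.5% were above 0 in SA. The SA groups were apart in 1 upward (4.06% of all) and in 4 downward (4.08% of all). These counts too are a description only. CHC1 went the other way in SA, with 122, 77.4 and 88.9 in set 2 and 66.4, 60.7 and 66.9 in set 3, a difference of -0.46 ± 0.20. In the test between the treatments, which shares the silwet difference with the ranking, 6 of the 12 had an unadjusted p under 0.05 and none had an adjusted p below 0.821 (limma), so a difference between the treatments was not shown.

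Plastid-encoded genes, which code for part of the photosynthetic machinery and for the plastid's own gene expression, mostly had small negative differences. Of 66 tested, 52 were below 0 and 14 above, with a median of -0.195, against 0.0081 over all tested probe sets. Unadjusted p was under 0.05 in 6, all lower, and groups were apart in 0, where 1.71% of all tested probe sets were lower at that p and 4.68% were lower and apart. Those 6 were ndhE and ndhG of the NADH dehydrogenase-like complex, petG of the cytochrome b6f complex, accD of fatty acid synthesis, rpoC1 of the plastid RNA polymerase and the ribosomal protein gene rps15. The median was -0.346 in the pair of replicate 1, -0.0191 in that of replicate 2 and -0.156 in that of replicate 3. Without replicate 1 it was -0.0967, with 43 below 0, and in the SA arrays it was 0.110. Without replicate 1, the -0.54 of ndhG was -0.28 and the -0.80 of rps15 was -0.20.

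The level of the plastid-encoded genes also differed between replicate numbers. In the median of the 66, relative to each gene's mean over the 6 arrays, it was 0.357, 0.216 and -0.294 in set 2 and -0.0504, 0.229 and -0.476 in set 3, lowest on replicate 3 in both. psbA, for the D1 protein of photosystem II, gave 1604, 1367 and 224 in set 2 and 1826, 1507 and 246 in set 3. Replicate 3 was the low array in both sets, and the difference between sets was 0.15 ± 0.24. ndhE gave 392, 350 and 181 in set 2 and 271, 210 and 120 in set 3, so the groups overlapped while each pair differed by a similar amount, -0.51, -0.69 and -0.53. petG gave 189, 53.3 and 26.2 in set 2 and 38.1, 12.4 and 14.7 in set 3, a difference of -1.22 ± 0.46. rbcL, the large subunit of Rubisco, was at 326, 252 and 214 in set 2 and at 102, 279 and 165 in set 3, with pair 2 above 0 and a difference of -0.58 ± 0.31 that was -0.10 without replicate 1.

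Nuclear genes of photosynthesis differed little and mostly in the other direction. All 5 tested members of their list were above 0, by 0.120 to 0.255, as were 7043 of all 13647 probe sets. Of the 5, 0 had an unadjusted limma p under 0.05. RCA gave 2249, 3066 and 2818 in set 2 and 2620, 3773 and 3349 in set 3, higher in each pair, with overlapping groups and a difference of 0.25 ± 0.19. The family of light-harvesting and photosystem proteins, which shares members with the list, had 6 of 7 above 0 and a median of 0.142. Its lowest was PSAN at -0.0145, and its highest was LHCB4.3, another antenna gene. LHCB4.3 had a difference of 0.33 ± 0.21, most of it from replicate 3, where it gave 106 in set 2 and 224 in set 3. Without replicate 1 the difference of LHCB4.3 was 0.56. The list thus lay opposite to the plastid-encoded genes in median, and neither held a called gene.

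Several nuclear genes of mitochondrial respiration had separate groups with lower values in set 3. Their family was put together after values had been seen. SDH2-1, an iron-sulphur subunit of succinate dehydrogenase, gave 391, 424 and 445 in set 2 and 296, 310 and 328 in set 3. Its pairs differed by -0.39, -0.43 and -0.42, and its difference was -0.41 ± 0.15, with an unadjusted limma p of 0.0123. CYTC-2, a cytochrome c, gave 142, 132 and 163 in set 2 and 87.4, 104 and 98.8 in set 3, a difference of -0.52 ± 0.19.

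The second cytochrome c gene, CYTC-1, and the alternative NAD(P)H dehydrogenase NDB2 were also apart, with differences of -0.43 ± 0.22 and -0.53 ± 0.26, the latter -0.35 without replicate 1. SDH2-2, a second gene for that succinate dehydrogenase subunit, had -0.30 ± 0.17 (-0.19 without replicate 1) and overlapped. Over the whole family 8 of 11 tested were below 0, with a median of -0.121. Of the 11, 2 were lower at an unadjusted p under 0.05, where 1.71% of all probe sets were, and 4 were lower and apart, where 4.68% were; the choice after seeing values leaves these counts as a description only. The 12 tested probe sets of 11 mitochondrion-encoded genes, nad1 having 2, had 11 below 0 with a median of -0.107, of which nad4, a complex I subunit, was at -0.37 ± 0.21 (-0.19 without replicate 1). Without set 3 replicate 1, 7 of the 12 probe sets were below 0, with a median of -0.0648. In the SA arrays SDH2-1 had a difference of -0.13 ± 0.15, SDH2-2 of -0.05 ± 0.17, CYTC-2 of -0.15 ± 0.19, CYTC-1 of 0.01 ± 0.22 and NDB2 of -0.67 ± 0.26.

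Families of cell wall and secondary metabolism were spread around 0. Serine carboxypeptidase-like genes had 10 of 13 above 0 and a median of 0.0956; SCPL27 gave 34.3, 58.8 and 53.8 in set 2 and 75.3, 63.3 and 92.4 in set 3, and scpl35 gave 472, 496 and 503 against 621, 709 and 699, both with separate groups. Of 9 tested expansins and relatives, which loosen cell walls, 4 were above 0; EXPA4 had a difference of 0.49 ± 0.20 with separate groups, and 0.32 without replicate 1. EXLB1 gave 128, 96.7 and 86.6 in set 2 and 493, 128 and 101 in set 3, so its difference of 0.79 ± 0.30 was 0.27 in the mean of pairs 2 and 3. UDP-glycosyltransferases had 14 of 25 above 0 with a median of 0.0206, and cytochromes P450 5 of 13 with a median of -0.0537.

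Of 13 glutathione transferases 6 were tested, 4 of them below 0; GSTU25 and GSTF4 had separate groups, with differences of -0.59 ± 0.28 and -0.25 ± 0.15 that were -0.39 and -0.10 without replicate 1. GSTU20 was apart in the other direction, with mean signals of 681 in set 2 and 803 in set 3, a difference of 0.25 ± 0.23 in silwet, from pairs of 0.54, 0.07 and 0.13, and of 0.54 ± 0.23 in SA. Of all tested probe sets 4.68% were apart and lower and 5% apart and higher. BCAT4, an aminotransferase at the start of glucosinolate synthesis from methionine, was higher on each set 3 array, by 0.46 ± 0.28 (0.23 without replicate 1), and in the SA arrays by 0.90 ± 0.28. GI, the clock protein GIGANTEA and the 1 tested member of the clock list, gave 120, 313 and 373 in set 2 and 491, 338 and 430 in set 3. Its set 2 replicate 1 was low, and the difference of 0.73 ± 0.40 was 0.15 in the mean of pairs 2 and 3.

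**Figure D5:**
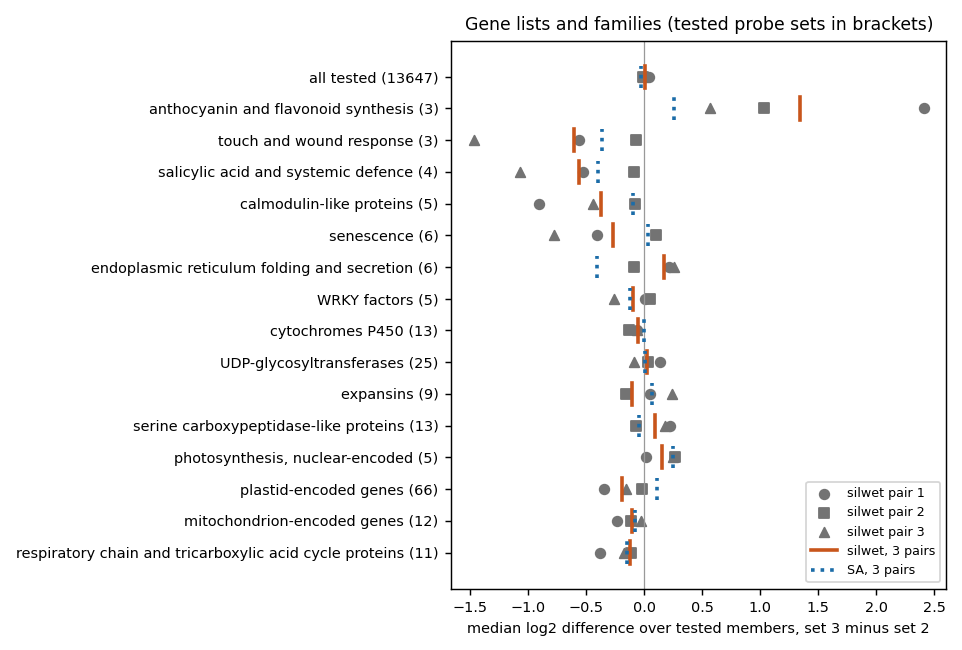
Median log2 difference, set 3 minus set 2, over the tested members of each list or family (number in brackets) in each silwet pair (grey symbols), over the 3 silwet pairs (solid bar) and over the 3 SA pairs (dotted bar). The anthocyanin list stands highest, at 1.34 in silwet, the defence list lies at -0.560, and most families lie near the 0.0081 of all tested probe sets.

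Among the 1071 tested probe sets with a gene symbol, 37 had an unadjusted p under 0.05, 18 higher and 19 lower, a share of 3.45% beside the 3.18% of all tested probe sets. Of the 37, 28 had the same sign in the SA arrays, as had 157 of the 234 lower and 106 of the 200 higher among all tested. On the lower side, OCT5, a cation or carnitine transporter, gave 131, 125 and 119 in set 2 and 93.4, 85.4 and 91.4 in set 3, with narrow groups well apart and a difference of -0.41 ± 0.16. PPR336, a pentatricopeptide repeat protein, had -0.43 ± 0.17 in silwet and -0.43 ± 0.17 in SA, with separate groups in both. MRL7-L had -0.52 ± 0.20 in silwet and -0.50 ± 0.20 in SA. SWEET2, a sugar transporter, had -0.62 ± 0.24 with separate groups in silwet and 0.47 ± 0.24 in SA. TET8, a tetraspanin, had -0.50 ± 0.19, with replicate 2 going the other way by 0.09 and -0.33 without replicate 1.

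On the higher side, FIO1 gave 20.2, 16.9 and 20.8 in set 2 and 42.2, 24.8 and 27.8 in set 3, and its groups did not overlap. CSLD2, a cellulose synthase-like protein, had 0.55 ± 0.21 with separate groups, and 0.30 without replicate 1. PHV, a homeodomain factor of leaf polarity, also had separate groups, with 0.52 ± 0.21, and 0.22 without replicate 1. TUA6, an alpha-tubulin, was higher in each pair by 0.27 to 0.39 and overlapped between sets, since replicate 1 was the low array in both. XERICO, a RING protein linked to abscisic acid, gave 260, 226 and 199 against 701, 260 and 184, so its difference of 0.49 ± 0.22 was 0.04 in the mean of pairs 2 and 3. EXO, a gene of the brassinosteroid response, likewise owed most of its -0.78 ± 0.35 to replicate 1, with -0.16 in the mean of the other 2 pairs.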

How the data were processed

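The deposited table of 18 ATH1 arrays holds linear intensity values that the authors made with MAS5, per the submitters' processing notes, which give no version. The authors had scaled the intensity values of each array, since their mean after trimming 2% at either end is about 100.01 throughout. The sources used here give neither build nor annotation. The table has 22810 probe sets, 64 of them controls; the platform's probe table gives exactly 1 gene for 13513, several for 503 and none for 8730, unnamed here. Of the 13513, 13436 matched RefSeq's TAIR10.1 gene table, used for names only.

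Values were taken as log2(signal + 16). Controls were left out, and the upper 60% of the rest by mean over 18 arrays (13647) were fitted with limma 3.58.1 in R 4.3.3 (lmFit, eBayes with trend): 6 cells of treatment by set, replicate number as a fixed block, 10 residual degrees of freedom, two-sided, Benjamini-Hochberg threshold 0.05. The block follows the definition of the comparison as paired by the titles' replicate numbers; those numbers are not said to mark a shared day or batch. The number of arrays limits the precision. Control ratios were compared by an exact two-sided permutation test over 20 arrangements. The fit was tested on simulated data.

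The arrays, gene lists, families and named genes were chosen with earlier results of these data known; the plastid subgroups, the respiratory family and the flavonoid family by symbol were added after values were seen, as were the genes named outside the ranks and lists. By rule, genes called with 1 gene per probe set and the same sign in all pairs were to be named; as none was called, the 12 of smallest p in each direction and up to 4 members per list were taken. Of 494 list genes, 71 were named by the probe table and 61 tested, so the lists are not whole pathways. Alternatives covered the block, the arrays fitted, pseudocount, filter, normalization, array weights and leaving out arrays. A planned count of promoter motifs was not run, as no promoter sequence was used here.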

Additional observations from a re-analysis of the deposited data

Results flagged for a closer look

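For 6 named genes all 3 silwet pairs went one way between the sets and all 3 SA pairs the other. The value given is the silwet minus the SA difference on the log2 scale: 1.40 for GI, 1.12 for AQI, an aquaporin interactor, 1.1 for CHC1, 0.77 for AT3G13440, 0.76 for AT1G15490 and 0.72 for AT2G20790. The adjusted p of this difference was 0.821 for each (limma), so it was not called. Of all tested probe sets 483 (3.54%) had such opposite pairs and 495 (3.63%) had the same sign in all 6 pairs. GI and AQI were lowest on silwet set 2 replicate 1, at 120 and 100.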

How the results depend on the processing

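In silwet, 0 probe sets were called in either direction under each of the 23 alternatives run; the number at an unadjusted p under 0.05 ran from 188, without set 2 replicate 1, to 1262 with array weights, whose estimate stopped before convergence, against 434 as reported. Without the replicate block it was 257 and with the 6 arrays alone and the block 691. Deviations of same-numbered silwet arrays of sets 2 and 3 correlated at 0.174, 0.0577 and 0.283, lowest in replicate 2. By root mean square log2 difference, set 2 replicate 1 lay 0.524 from its partner and 0.396 from set 3 replicate 2. No test of pairing was run, so the numbers were not shown to pair the arrays. None of 2015 values of 89 of the named genes changed sign or passed. The 24 ranked genes were picked for the same sign in all 3 pairs. Dropping a replicate number or changing the pseudocount therefore could not reverse their sign, and the lack of reversals is a description only. For SA set 3 minus set 2, the 1 probe set called higher was unnamed here, with 1.67 ± 0.23 in SA (adjusted p 0.0423) and 0.22 ± 0.23 in silwet. The count higher was 0 with no replicate block, a random replicate effect, the common 75th percentile or array weights, and 2 with every probe set; leaving out arrays gave 0 to 1. The count lower, 0 as reported, was 2 with pseudocount 1, 1 with the upper 40% of probe sets and 1 with quantile normalization; leaving out arrays gave 0 to 10, the 10 without SA set 3 replicate 1. The difference between the treatments had 0 calls under each alternative run. Leaving out set 3 replicate 1, chosen after seeing the data, took the anthocyanin median from 1.34 to 0.794. The causes were not tested.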
